A study of Mus musculus with 10 samples.

Results

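The DNAJ (HSP40) genes encode J-domain proteins, the cochaperones that bring substrates to HSP70 chaperones. The family was taken as every protein-coding gene of the count table whose symbol in GENCODE mouse release M21 begins with Dnaja, Dnajb or Dnajc followed by a number. Dnajb9 and Dnajb11 were left out of it. The rule was met by 43 of 57010 genes. Of these, 37 had a mean of at least 0.5 CPM, the count scaled to library size, and are described here, 4 of class A, 8 of class B and 25 of class C. RNA was sequenced from retinas of mice aged 6 to 8 weeks, 14 days after intravitreal injection. The vector was an adeno-associated virus (AAV) carrying green fluorescent protein in both groups, in the AAV2 capsid (AAV2-GFP, 5 mice) or in the capsid named AAV206 (AAV206-GFP, 5 mice). The labels name no strain, sex, promoter or batch, and do not say whether 1 or both retinas of a mouse were used. No uninjected retina was analysed here, so every difference is between the vectors.

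In the HSP70 cycle, the J domain carries a conserved histidine-proline-aspartate motif that stimulates ATP hydrolysis by HSP70, which then closes on its substrate. Nucleotide exchange factors reopen it. Class A members share the domain layout of bacterial DnaJ, class B members lack its zinc finger, and class C members have in common only the J domain, which serves clathrin uncoating, mitochondrial import, splicing and other tasks. Several class A and B genes are induced by heat shock factor HSF1, and several J proteins of the endoplasmic reticulum (ER) by the unfolded protein response. In the retina J proteins have been studied for the folding of rhodopsin and for the upkeep of synapses.

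Depth was even, at 10989843 to 12752604 counts per library, so that 3 counts correspond to 0.232 to 0.274 CPM. This floor covers counting error only. The libraries were retinal: all 6 rod genes checked were detected, and their summed level was 50083 to 53268 CPM with AAV2-GFP and 53679 to 59046 CPM with AAV206-GFP. Some libraries stood apart. The summed level of 6 microglia and macrophage genes was 136 CPM in AAV2-GFP replicate 1 and 15.3 to 31.3 CPM in all other libraries. The 8 interferon-response genes summed to 424 and 573 CPM in AAV2-GFP replicates 1 and 4, against 80.3 to 144 CPM elsewhere, and 5 of the 7 that could be tested passed as lower with AAV206-GFP. The Y-linked genes of AAV206-GFP replicate 4 were at 48.2% of the mean of the other mice in its group. Markers of other cells also differed between the vectors. The 6 lens genes, of which Lim2 was at 0 throughout, summed to 9.34 to 26.7 CPM with AAV2-GFP, and with AAV206-GFP to 10.8 CPM in replicate 1 and at most 1.61 CPM in the others; 2 of the 2 that could be tested passed as lower. The 5 erythrocyte genes, all detected, summed to 67.8 to 85.8 CPM with AAV2-GFP and 101 to 319 CPM with AAV206-GFP, and 4 passed as higher. Cone genes summed to 750 to 813 CPM and 824 to 877 CPM, and 2 of 6 passed as higher. Of 6 endothelial genes Cldn5 and Kdr passed as lower and Flt1 as higher. Passing as lower were also Grm6 of 6 bipolar, Pou4f1 of 6 ganglion cell, Rgr of 5 tested pigment epithelium and C1qa of 4 tested microglia genes. Positive log2 fold changes were seen in 2 of the bipolar, 2 of the ganglion cell and 1 of the pigment epithelium genes. None of 6 amacrine and 6 Muller glia genes passed. Log2 fold changes were positive in 5 of the amacrine genes and negative in all 6 Muller glia genes (median -0.187). The part that these cells or libraries had in the differences given here was not tested, beyond the fits without single libraries. In bulk tissue fewer cells of a type and less RNA per cell cannot be told apart.

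Of the 36 members with enough counts to be tested, 7 differed between the vectors (edgeR quasi-likelihood test, Benjamini-Hochberg adjusted p under 0.05), which is 19.4% against 11.2% of all 15539 tested genes. The 5 that fell with AAV206-GFP were Dnajb1, Dnajc3, Dnajb2, Dnaja1 and Dnaja2, or 13.9% of the members against 5.3% of all genes. The 2 that rose were Dnajc10 and Dnajc13, or 5.56% against 5.95%. The changes of these 7 ran from -33.1% to 26.4%. An unadjusted p under 0.05 was reached by 11 of the 36 members, against 28.0% of all genes. The mice of both groups did not overlap in 7 members (19.4%, against 9.78% of all genes), namely Dnajc27 and the called genes other than Dnajc13. The median log2 fold change was -0.0468 over the tested members and -0.0095 over all genes. The family as a whole thus lay close to the centre of the data. Log2 fold changes of less than 0.2 in either direction were seen in 27 of the 36 members, or 75.0% against 58.9% of all genes. By class, 2 of 4 class A genes and 2 of 7 tested class B genes fell and none rose. In class C 1 fell, 2 rose and 22 of 25 did not pass, so that 3 of 25 were called, close to the 11.2% of all genes. Without AAV2-GFP replicates 1 and 4, 3 members passed, 2 lower and 1 higher, and none was of class A. In that fit 985 of 15951 tested genes passed. Over all 10 libraries, median log2 fold changes were -0.17, -0.10 and -0.01 in classes A, B and C. Whether the classes differ from one another was not tested.

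**Figure D1:**
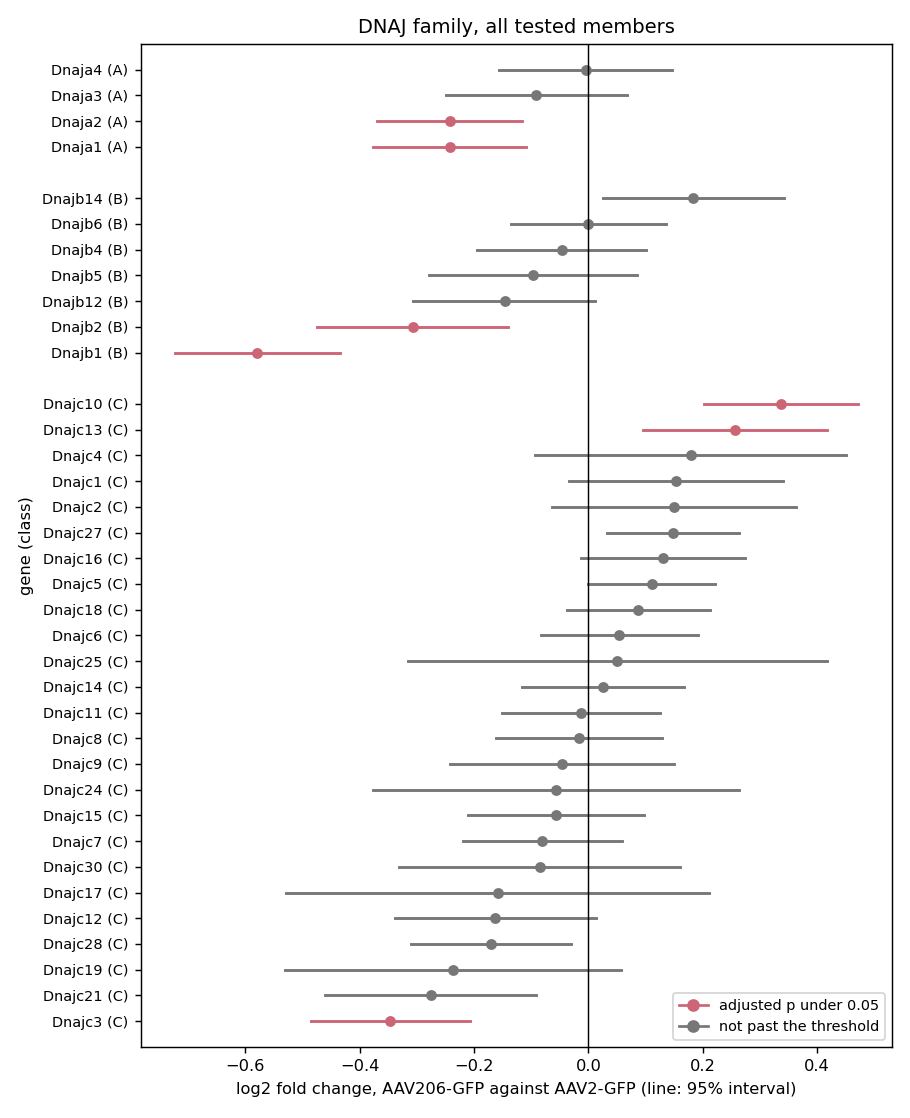
Log2 fold change (horizontal axis, AAV206-GFP against AAV2-GFP) of the 36 tested DNAJ genes, with 95% intervals from edgeR and genes ordered by class on the vertical axis. The 7 genes past the threshold are coloured: 5 lie to the left of 0 and 2, Dnajc10 and Dnajc13, to the right.

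Promoter sequence is shown for Dnajb1, Dnajc3 and Dnajc10, the genes with the smallest adjusted p-values. Stretches of 30 bases are shown for Dnaja1 and Dnajb6 because their windows held a heat shock motif. The last 2 were thus picked by their match. The windows, 250 bases before to 50 bases after a start site, came from RefSeq on GRCm38.p6 and were found for 31 of the 37 members. Motifs were searched on both strands in all 32851 windows: pairs of heat shock units as GAANNTTC and TTCNNGAA, 3 units in a row, which contain both pairs, and the ER stress element as CCAAT and CCACG with 9 bases between them. Capitals mark a match and positions count back from the start site. The Dnajb1, Dnajc3 and Dnajc10 sequences lie outside annotated exons. The other 2 stretches lie inside their genes, which in GENCODE M21 begin at 40722150 (Dnaja1) and 29735688 (Dnajb6). For Dnajb6 all 250 bases before the RefSeq start were in annotated exons. For Dnaja1 the longest stretch outside them was 32 bases, at -32 to -1.
Dnajb1, chr8:83607972-83608174, plus strand: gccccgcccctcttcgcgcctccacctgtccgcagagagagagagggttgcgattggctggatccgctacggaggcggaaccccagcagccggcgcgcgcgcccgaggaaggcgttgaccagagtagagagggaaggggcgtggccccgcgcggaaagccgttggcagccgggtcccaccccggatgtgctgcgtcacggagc
Dnajc3, chr14:118937682-118937931, plus strand: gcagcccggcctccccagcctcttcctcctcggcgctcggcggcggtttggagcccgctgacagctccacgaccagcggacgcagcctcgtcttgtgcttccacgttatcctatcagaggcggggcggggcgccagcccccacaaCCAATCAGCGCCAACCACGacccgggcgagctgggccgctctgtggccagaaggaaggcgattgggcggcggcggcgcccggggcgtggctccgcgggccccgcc
Dnajc10, chr2:80315216-80315465, plus strand: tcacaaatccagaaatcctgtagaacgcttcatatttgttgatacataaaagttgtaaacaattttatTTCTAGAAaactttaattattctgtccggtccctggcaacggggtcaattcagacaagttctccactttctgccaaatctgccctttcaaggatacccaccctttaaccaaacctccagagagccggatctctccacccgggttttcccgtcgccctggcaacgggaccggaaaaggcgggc
Dnaja1, chr4:40722333-40722362, plus strand: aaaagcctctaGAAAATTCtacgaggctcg
Dnajb6, chr5:29735844-29735873, plus strand: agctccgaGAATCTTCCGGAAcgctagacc
The ER stress element stood at -105 to -87 of Dnajc3, in 1 of the 31 members and in 0.119% of all windows. The 3-unit heat shock motif stood at -46 to -34 of Dnajb6, also in 1 of the 31 members and in 0.603% of windows. A head-to-head pair was present in Dnaja1 (at -124 to -117), Dnaja4, Dnajb6 and Dnajc27, and in 7.86% of windows. A tail-to-tail pair was present in Dnajb4, Dnajb6 and Dnajc10 (at -182 to -175), and in 8.52% of windows. The matches of Dnaja4 and Dnajb4 lay only in a window other than the most upstream of the gene. Members were counted by a match in any of their windows, whereas the shares are of single windows, so the 2 figures are not like for like. Dnajb1 had no match within the windows searched. A match describes letters only, and members with a heat shock pair included genes that fell, that rose and that did not pass.

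Dnajb1 showed the largest change of the family. It encodes the main heat-inducible HSP40 of the cytosol, which works with HSP70 and HSP110 in refolding and in dissolving aggregates, and lies at chr8:83608193-83612653 on the plus strand of GRCm38. With AAV2-GFP the mice had 72.9, 66.7, 77.9, 80.0 and 71.4 CPM, and with AAV206-GFP 45.6, 50.1, 48.9, 48.5 and 53.9 CPM, each in order of replicate number. Every AAV206-GFP mouse lay at least 12.8 CPM below every AAV2-GFP mouse. The mean fell from 73.8 ± 5.28 to 49.4 ± 3.02 CPM (SD, n = 5), a change of -33.1% (95% interval -39.4% to -26.1%). Its log2 fold change was -0.58 (SE 0.07, edgeR adjusted p = 6.7e-05) and stayed past the threshold under all 21 alternatives.

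The other cytosolic class B genes did not share that size of change. Dnajb2 (chr1:75236406-75245692, plus strand) encodes a J protein enriched in neurons that binds ubiquitin and passes substrates to the proteasome. Its levels were 107, 104, 115, 129 and 103 CPM with AAV2-GFP and 94.8, 91.6, 84.9, 79.2 and 101 CPM with AAV206-GFP. The groups were set apart by only 2.65 CPM, between AAV206-GFP replicate 5 and AAV2-GFP replicate 5. Group means were 112 ± 10.8 and 90.3 ± 8.44 CPM (SD, n = 5), and Dnajb2 fell (log2 fold change -0.31, SE 0.08, edgeR adjusted p = 0.0206). The call was lost without AAV2-GFP replicate 4 (adjusted p = 0.0631), AAV206-GFP replicate 3 (0.0563) or AAV206-GFP replicate 4 (0.0547) in edgeR, and without AAV2-GFP replicates 1 and 4 together (0.0771). Dnajb6, which keeps polyglutamine proteins from aggregating, had 77.3 to 92.3 CPM (median 89.9) and 81.2 to 93.0 CPM (median 86.6). Its groups lay on top of one another, with a 95% interval of -8.96% to 9.85%. Dnajb4, a heat-inducible relative of Dnajb1, had 55.7 to 65.6 CPM and 52.0 to 63.9 CPM, with an interval of -12.7% to 7.28%. Dnajb5 ranged from 35.8 to 46.9 CPM and from 34.1 to 40.9 CPM, with a log2 fold change of -0.10.

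In class A both abundant cytosolic genes were lower. Dnaja1 (chr4:40722150-40737149, plus strand) and Dnaja2 (chr8:85537633-85555344, minus strand) encode general partners of the constitutive HSP70 Hspa8 in protein folding. Dnaja1 had 175, 182, 203, 206 and 190 CPM with AAV2-GFP and 148, 168, 165, 168 and 158 CPM with AAV206-GFP. Dnaja2 had 149, 147, 167, 156 and 152 CPM with AAV2-GFP and 122, 130, 141, 130 and 129 CPM with AAV206-GFP. In both genes the highest AAV206-GFP mouse was below the lowest AAV2-GFP mouse, by 6.66 CPM in Dnaja1 and 5.34 CPM in Dnaja2. Group means were 191 ± 13.1 and 162 ± 8.45 CPM (SD, n = 5), and Dnaja1 fell (log2 fold change -0.24, SE 0.06, edgeR adjusted p = 0.0228). Group means were 154 ± 8.06 and 130 ± 6.96 CPM (SD, n = 5), and Dnaja2 fell (log2 fold change -0.24, SE 0.06, edgeR adjusted p = 0.0171). Without AAV2-GFP replicates 1 and 4, the mice with high interferon genes, neither passed in edgeR (adjusted p = 0.0547 and 0.0523), although the log2 fold changes were -0.25 and -0.26. Dnaja1 also lost its call without AAV2-GFP replicate 4 alone (adjusted p = 0.0697, edgeR). Dnaja1 carried decimals in all 10 libraries and shares 608 exonic bases with Smu1 on the opposite strand, so its level is uncertain.

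The remaining class A genes differed little. Dnaja4, a heat-inducible cytosolic member, had 47.8 to 55.7 CPM (median 48.6) with AAV2-GFP and 46.6 to 57.0 CPM (median 48.4) with AAV206-GFP. Its interval was -10.2% to 10.7%, and with decimals in 9 libraries and 1581 exonic bases shared with Wdr61 its level is uncertain too. Dnaja3, the mitochondrial member of the class, had 53.5 to 66.2 CPM and 50.7 to 61.0 CPM, with an interval of -15.9% to 4.79%. Of the 4 members listed as heat-inducible, Dnajb1 and Dnaja1 thus fell (Dnaja1 with the limits given above), while Dnaja4 and Dnajb4 did not pass. Of all genes 5.3% fell. Over the 8 cytosolic genes of classes A and B, 4 fell and none rose, beside 5.3% of all genes that fell and 5.95% that rose. Their summed level, which includes those 4 genes, was 733, 720, 813, 823 and 749 CPM with AAV2-GFP and 632, 671, 677, 655 and 685 CPM with AAV206-GFP.

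**Figure D2:**
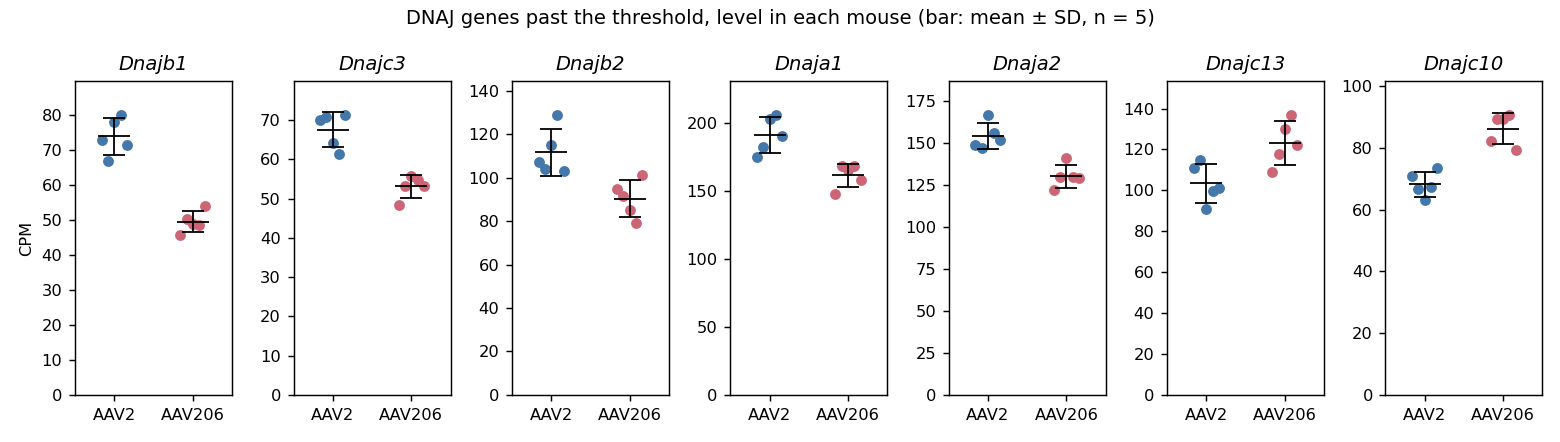
CPM (vertical axis) of the 7 DNAJ genes past the threshold in each mouse, with AAV2-GFP in blue and AAV206-GFP in red and the bars showing mean ± SD (n = 5). The groups are apart in 6 genes, most clearly in Dnajb1, and overlap in Dnajc13.

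Of 9 members listed for the ER, Dnajc3 fell, Dnajc10 rose and 7 did not pass, beside 5.3% of all genes that fell and 5.95% that rose. Dnajc3 (chr14:118937976-118981697, plus strand) encodes p58IPK, a partner of the ER HSP70 Hspa5 (BiP) that also restrains the stress kinases PERK and PKR. Its levels were 70.0, 70.7, 64.2, 61.5 and 71.4 CPM with AAV2-GFP and 48.3, 53.3, 55.9, 54.7 and 53.3 CPM with AAV206-GFP. No AAV206-GFP mouse reached the lowest AAV2-GFP mouse, and the gap was 5.66 CPM. Group means were 67.6 ± 4.42 and 53.1 ± 2.90 CPM (SD, n = 5), and Dnajc3 fell (log2 fold change -0.35, SE 0.07, edgeR adjusted p = 0.00332).

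Dnajc10 (chr2:80315466-80354043, plus strand) encodes ERdj5, a disulfide reductase that unlinks misfolded proteins with BiP before they are degraded. It had 71.0, 66.8, 63.0, 67.3 and 73.4 CPM with AAV2-GFP and 82.4, 89.4, 89.5, 90.8 and 79.4 CPM with AAV206-GFP. The order of the groups was the reverse of that for Dnajc3, again without overlap, and with a gap of 6.06 CPM. Group means were 68.3 ± 4.00 and 86.3 ± 5.06 CPM (SD, n = 5), and Dnajc10 rose by 26.4% (95% interval 15.1% to 38.7%) (log2 fold change 0.34, SE 0.06, edgeR adjusted p = 0.00315). Like Dnajb1, both Dnajc3 and Dnajc10 were past the threshold under all 21 alternatives, with adjusted p-values of at most 0.0181 and 0.0236 over edgeR, DESeq2 and limma.

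The other 7 listed ER members did not pass. Dnajb14 and Dnajb12 are membrane proteins whose J domains face the cytosol and serve ER-associated degradation. Dnajb14 had 147, 144, 119, 121 and 131 CPM with AAV2-GFP and 138, 152, 150, 168 and 142 CPM with AAV206-GFP. These overlapped, and its log2 fold change of 0.18 did not pass (edgeR adjusted p = 0.122, interval 1.72% to 26.8%). Dnajb12 had 44.4 to 57.5 CPM and 44.9 to 49.0 CPM, with a log2 fold change of -0.15. Dnajc18, a further ER membrane protein, had 107 to 123 CPM and 114 to 129 CPM, with a log2 fold change of 0.09. Dnajc1, Dnajc14, Dnajc16 and Dnajc25 had log2 fold changes of 0.15, 0.03, 0.13 and 0.05. Of these, Dnajc1 and Dnajc14 carried decimals in all 10 libraries.

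The most abundant member acts on synaptic vesicles. Dnajc5 encodes cysteine string protein alpha, a synaptic vesicle protein that keeps SNARE proteins folded, and alone gave 18.4% of the summed CPM of the 37 members. Its level per kilobase of annotated exons, the scale used here to compare genes, was 75.5 CPM, followed by Dnaja2 at 47.8 and Dnajc6 at 30.5 CPM per kilobase. These lengths count every annotated exon, so the order depends on isoforms that the retina may not use. Dnajc5 had 498, 529, 481, 502 and 513 CPM with AAV2-GFP and 515, 535, 563, 566 and 545 CPM with AAV206-GFP. AAV2-GFP replicate 2 lay within the AAV206-GFP range, and the log2 fold change of 0.11 did not pass (edgeR adjusted p = 0.179, interval -0.00723% to 16.6%). Dnajc6, the neuronal auxilin that strips clathrin from vesicles, had 163 to 184 CPM and 163 to 198 CPM, with a log2 fold change of 0.05.

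Dnajc13 (chr9:104151282-104262930, minus strand) encodes RME-8, which sorts cargo at endosomes. It had 111, 115, 91.1, 99.6 and 101 CPM with AAV2-GFP and 109, 118, 130, 137 and 122 CPM with AAV206-GFP. AAV206-GFP replicate 1 lay below AAV2-GFP replicates 1 and 2, so this was the called member whose groups overlapped. Group means were 103 ± 9.42 and 123 ± 10.8 CPM (SD, n = 5), and Dnajc13 rose (log2 fold change 0.26, SE 0.08, edgeR adjusted p = 0.0404). It was the least stable call: only 3 of the 10 fits without 1 library kept it. It was lost without AAV2-GFP replicates 3, 4 or 5 or AAV206-GFP replicates 2, 3, 4 or 5, with adjusted p-values of 0.0588 to 0.101 in edgeR, and without AAV2-GFP replicates 1 and 4 together (0.102). A short gene model on the opposite strand, Gm37563, shares 232 of its exonic bases.

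Among members of the nucleus, the ribosome and RNA processing none of 6 passed, which with 11.2% of all genes called says little about so short a list. Dnajc21, which acts in the assembly of the large ribosomal subunit, came closest. Its levels ran from 21.8 to 27.3 CPM (median 25.1) with AAV2-GFP and from 18.4 to 22.1 CPM with AAV206-GFP. AAV2-GFP replicate 5 fell within the AAV206-GFP range, and the log2 fold change of -0.28 had an edgeR adjusted p of 0.0516. It passed when that replicate was left out (adjusted p = 0.0383) and with DESeq2 (adjusted p = 0.0413). Dnajc2, a ribosome-associated cochaperone, Dnajc8, a splicing protein, Dnajc9, a histone chaperone, and Dnajc17 and Dnajc24 had log2 fold changes between -0.16 and 0.15.

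Of 7 mitochondrial members none passed either, again too short a list to read against the 11.2% of all genes. They comprise Dnaja3, the import motor subunits Dnajc15 and Dnajc19, Dnajc11, which associates with the complex that shapes the inner membrane, Dnajc30, Dnajc4 and Dnajc28. Their summed level was 239 to 261 CPM with AAV2-GFP and 235 to 249 CPM with AAV206-GFP. The log2 fold changes ranged from -0.24 in Dnajc19 to 0.18 in Dnajc4, and 6 of the 7 were negative, as were 8048 of all 15539 genes. Dnajc19 was expressed at 10.3 to 17.5 CPM, and its interval was -30.8% to 4.02%.

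Members outside these lists included Dnajc7, Dnajc27 and Dnajc12. Dnajc27, which joins a J domain to a RAB-like GTPase, had 111, 121, 110, 119 and 120 CPM with AAV2-GFP and 129, 128, 132, 131 and 124 CPM with AAV206-GFP. The groups did not overlap, but the difference was small, a log2 fold change of 0.15 with an edgeR adjusted p of 0.0873 (0.0469 with DESeq2). Dnajc7, which binds both HSP70 and HSP90, had 133 to 149 CPM and 121 to 149 CPM, with a log2 fold change of -0.08. Dnajc12, a cochaperone of the aromatic amino acid hydroxylases, had 39.1 to 51.0 CPM and 34.9 to 42.7 CPM, with a log2 fold change of -0.16. Dnajb3 averaged 0.601 CPM, at 4 to 11 counts per library, and was too low to be tested. The 6 members below 0.5 CPM were Dnajb7, Dnajb8, Dnajb13, Dnajc5b, Dnajc5g and Dnajc22.

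Some of the chaperones that J proteins serve also differed. Of 38 genes in lists of other J-domain proteins, HSP70 chaperones, nucleotide exchange factors and HSP70 cofactors, 11 fell and 1 rose, which is 31.6% against 11.2% of all genes. These lists, like the family, were drawn up with earlier results of these data known. Hspa8, the constitutive HSP70 of the cytosol, had 1355 to 1518 CPM with AAV2-GFP and 682 to 781 CPM with AAV206-GFP, a log2 fold change of -0.97 (edgeR adjusted p = 7.53e-08). Hspa5, the ER HSP70, had 350 to 378 CPM and 132 to 185 CPM, a log2 fold change of -1.20 (edgeR adjusted p = 9.89e-08). The groups did not overlap in either gene. The stress-inducible Hspa1a and Hspa1b had log2 fold changes of -0.60 and -0.72, and all libraries carried decimals for them and for Hspa8. The other 7 of 11 HSP70 genes did not pass. On the log2 scale Hspa12a was at 0.23, the mitochondrial Hspa9 at 0.03 and Hspa14 at 0.00. Hspa13, Hspa2, Hspa12b and Hspa1l were at -0.10, -0.12, -0.20 and -0.21. Of the 11, 9 were negative, as were 8048 of all 15539 genes.

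Among exchange factors and cofactors, Hsph1 (HSP110), Hyou1 of the ER lumen, Stip1, which joins HSP70 to HSP90, St13 and Hspa4 had log2 fold changes of -0.82, -0.57, -0.59, -0.49 and -0.27. All 5 passed with edgeR at adjusted p-values of at most 0.00981, but Hspa4 did not without AAV2-GFP replicates 1 and 4 (adjusted p = 0.0564). In these lists 10 of 14 exchange factors and 4 of 6 cofactor and heat shock factor genes did not pass. Log2 fold changes were positive in 3 of the 14 and 2 of the 6. They included Hspa4l, the most abundant exchange factor (mean 442 CPM), at 0.16 and Hsf1 at 0.05. The exchange factors summed to 1301 to 1387 CPM with AAV2-GFP and 1181 to 1313 CPM with AAV206-GFP. Of 7 J-domain proteins outside the family 5 did not pass, and 2 of the 7 log2 fold changes were positive. Dnajb9, left out of the family like Dnajb11, was at -0.005 and Sec63 at 0.03, and neither passed. Dnajb11, a BiP partner in the ER lumen, fell between group means of 57.8 ± 3.67 and 45.5 ± 1.69 CPM (SD, n = 5; log2 fold change -0.34, edgeR adjusted p = 0.00281). Gak, a relative of the auxilin Dnajc6, was the gene that rose (log2 fold change 0.25, edgeR adjusted p = 0.0182). Its group means were 84.8 ± 4.55 and 101 ± 6.04 CPM (SD, n = 5). It was picked out after its values were seen. So was Bag1, an exchange factor that fell by 0.31 on the log2 scale (edgeR adjusted p = 0.0313).

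**Figure D3:**
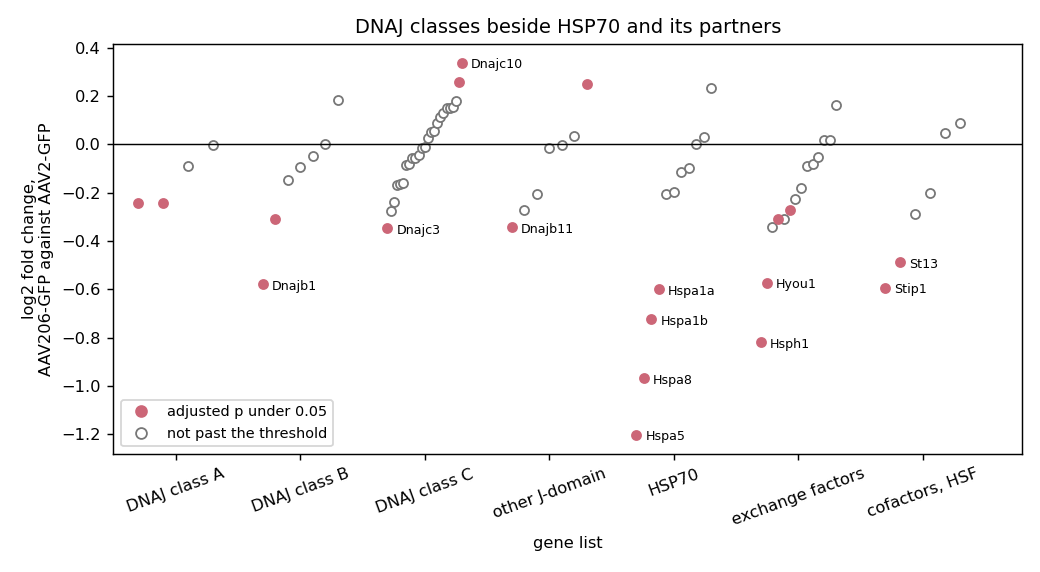
Log2 fold change (vertical axis, AAV206-GFP against AAV2-GFP) of each tested gene in the 3 DNAJ classes and in 4 lists of HSP70 chaperones and their partners (horizontal axis), filled where edgeR's adjusted p was under 0.05. Hspa5 and Hspa8 lie lowest at -1.20 and -0.97, below Dnajb1 at -0.58.

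**Figure D4:**
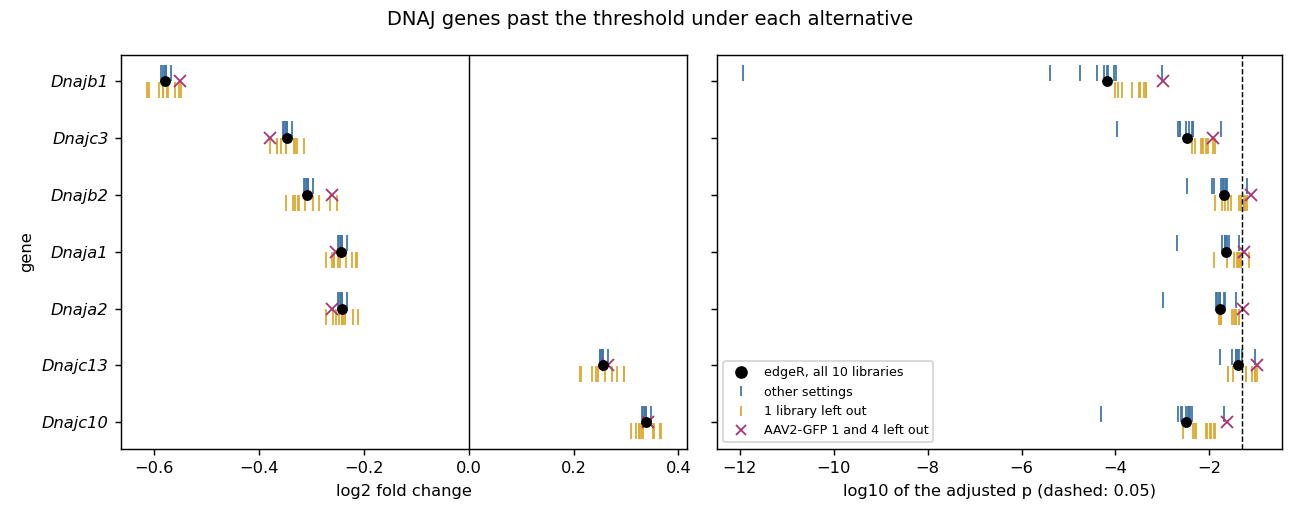
Log2 fold change (left) and log10 of the adjusted p (right) of the 7 called DNAJ genes with edgeR on all 10 libraries, with other settings, and with 1 or 2 libraries left out. No direction changed, and Dnajb1, Dnajc3 and Dnajc10 kept every point left of the 0.05 line in the right panel, which the other 4 genes did not.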

How the data were processed

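Per the submitters' processing notes, STAR 2.7.10b, RSEM 1.3.1 and mm10 were used. The annotation is not given in the sources used here, and 4981 of the 57010 gene identifiers are absent from GENCODE M21 (GRCm38), the source of names, biotypes and coordinates. The authors deposited expected counts per gene, not scaled between libraries. Of these values 5.95% carry decimals, which marks reads divided between genes, so they were rounded to whole numbers. By GENCODE M21, 14 tested members share exonic bases with another gene. The library kit is not stated to mark strand, so reads in those bases may not be told apart. Of the tested members 7 carried decimals in any library.

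Genes were kept by filterByExpr (minimum count 10). The main test was the quasi-likelihood test of edgeR 4.0.16 in R 4.3.3 on all 10 libraries, with TMM scaling and no covariate, adjusted by the Benjamini-Hochberg method over 15539 genes at 0.05. Standard errors are the absolute log2 fold change over the root of F. CPM use TMM-scaled library sizes. DESeq2 1.42.0 and limma 3.58.1 served as alternatives. Libraries of a group differed by more than sampling noise (chi-square 3.74 to 23.1 per degree of freedom).

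The members, gene lists, motifs and tests were chosen with earlier results of these data known. Named in full were called members, the most abundant and most changed of each class and 4 heat-inducible genes (18 in all); the other 18 tested members are given in brief. Of partners, at most 10 called genes were named by rule. The 7 HSP70 genes that did not pass were added outside that rule, as were Hspa4l, Hsf1, Dnajb9 and Sec63.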

Additional observations from a re-analysis of the deposited data

Results flagged for a closer look

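Single mice that lay far from the other 4 of their group were sought in 130 sets of 5 values, as the distance to the next value divided by the range (ratio of Dixon, critical value 0.71). Chance flags about 1 in 20 such sets, or 6.5 here, and 8 were found. None was a called DNAJ gene. Dnaja4 was 57.0 CPM in AAV206-GFP replicate 5 and 46.6 to 49.5 CPM in its 4 companions (ratio 0.722). AAV206-GFP replicate 1 was low in 3 sums. Its class A genes summed to 371 CPM against 398 to 407 CPM (ratio 0.75), its class B genes to 500 CPM against 522 to 530 CPM (ratio 0.733) and its 4 heat-inducible genes to 295 CPM against 324 to 327 CPM (ratio 0.906). The same mouse had the highest lens sum of its group, 10.8 CPM against 0.69 to 1.61 CPM (ratio 0.909). Without it the same 7 members passed in edgeR.

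AAV2-GFP replicate 1 had the highest sums of microglia and macrophage genes, 136 CPM against 19.0 to 31.3 CPM (ratio 0.895), and of T and NK cell genes, 11.8 CPM against 0.0898 to 0.684 CPM (ratio 0.949). Without it the same 7 members passed. AAV206-GFP replicate 4 had 114 CPM of Y-linked genes against 231 to 241 CPM (ratio 0.924). Without it 5 members passed, and Dnajb2 and Dnajc13 did not. The causes were not tested.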

How the results depend on the processing

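The 7 called members passed, with no others, under DESeq2 size factors, upper-quartile scaling, library sizes alone, both other filters, limma-voom and robust dispersion. DESeq2 added Dnajc21 and Dnajc27, which gave 9 members and 5 of class C. Restricting the table to genes with whole counts removed Dnaja1, leaving 6 members and 1 of class A. Leaving out AAV2-GFP replicates 1 and 4 together left 3 members, Dnajb1, Dnajc3 and Dnajc10: 2 lower, 1 higher, 0 in class A and 1 in class B, with 985 genes in all. With 1 library left out at a time, 4 to 7 members passed (3 to 6 lower and 1 to 2 higher; 1 to 2 in class A and 1 to 2 in class B), and 991 to 1912 genes in all. The fewest came without AAV2-GFP replicate 4, where Dnaja1, Dnajb2 and Dnajc13 were lost; without AAV206-GFP replicates 2 and 4 1074 and 1056 genes passed. In a fit with the replicate block 5 members passed, without Dnajb2 and Dnajc13 (adjusted p = 0.0639 and 0.0937, edgeR), of which 1 was higher and 1 was in class B, and 1085 genes passed in all. The replicate numbers are not stated to pair the mice. Deviations of same-numbered mice correlated at -0.046 to 0.02 over genes, so no shared deviation was seen, which cannot exclude pairing.

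No called member changed direction. Signs turned only in uncalled members near 0. Dnaja4 was 0.00521 with upper-quartile scaling and 0.0244 without AAV2-GFP replicates 1 and 4, and Dnajb6 was -0.00727 with library sizes alone, -0.00503 with no filter and -0.00105 with the mean CPM filter. Without both AAV2-GFP mice Dnajc11 was 0.0175 and Dnajc14 -0.00775. Leaving out 1 library also turned the sign of Dnaja4, Dnajb6, Dnajc11, Dnajc14, Dnajc24, Dnajc25, Dnajc8 and Dnajc9, over ranges of -0.0546 to 0.0354, -0.0401 to 0.024, -0.0452 to 0.012, -0.00954 to 0.0627, -0.106 to 0.065, -0.0309 to 0.147, -0.0603 to 0.0154 and -0.0871 to 0.0164, in that order. The intervals of Dnajc17, Dnajc24 and Dnajc25, at 7.6 to 8.53 CPM, were the widest of the tested members. The cause was not tested.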

Other observations

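Dnajb13, a J protein of sperm flagella and motile cilia, was below the level at which members were described. It had 13 counts over the 5 AAV2-GFP libraries, all in replicates 3 and 4, and 2 counts over the AAV206-GFP libraries. A list of 5 genes of motile cilia was drawn up as a check for other cell types, and its sum was 29.5, 27.6, 27.8, 26.5 and 25.2 CPM with AAV2-GFP and 18.8, 14.3, 15.0, 13.6 and 17.3 CPM with AAV206-GFP. Both members with enough counts to test were lower, beside 5.3% of all genes that fell. Most of the sum came from these 2 genes, so it is not a separate observation. Foxj1, the transcription factor of motile ciliogenesis, fell between group means of 6.31 ± 1.02 and 2.84 ± 0.666 CPM (SD, n = 5; log2 fold change -1.14, edgeR adjusted p = 0.00188). Ccdc39 fell between group means of 19.2 ± 1.78 and 11.8 ± 1.43 CPM (SD, n = 5; log2 fold change -0.70, edgeR adjusted p = 0.000888), with decimals in all 10 libraries. Tekt1, Dnah5 and Rsph1 were under 1 CPM on average and were not tested.

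Across genes, longer ones tended towards higher fold changes. Over the 36 tested members the Spearman correlation of the log2 fold change with the annotated exon length was 0.40, and with the span of the gene 0.41. Over 15287 tested genes with an annotation the same correlations were 0.24 and 0.22. Genes share libraries and are not independent, so these are descriptions. The spans of the members that rose were 111649 bases for Dnajc13 and 38578 bases for Dnajc10, and those of the 5 that fell ranged from 4461 bases for Dnajb1 to 43722 bases for Dnajc3.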
